A study of Mus musculus with 10 samples.

Results

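The Th17 and interleukin 22 axis is the set of cytokines that T helper 17 (Th17) cells and related innate lymphocytes release, together with the cytokine that sustains those cells and the receptors around them. It was taken here as 9 genes named by symbol, *Il17a*, *Il17f*, *Il22*, *Il21*, *Il23a*, *Il23r*, *Ccr6*, *Il22ra1* and *Il17ra*, out of 56691 genes in the table of counts. RNA was sequenced from colon of 10 male C57/BL6 mice aged 8 weeks, 5 in a DSS group and 5 in a ceAF group. All 10 mice had free access to 3% dextran sulfate sodium (DSS), a detergent-like polymer that injures the colon lining, for 7 days. The ceAF group was then given 15 mL/kg of ceAF, the amniotic fluid of chick eggs, by gavage for 10 days. What the DSS group was given in those 10 days is not stated in the sources used here, and mice without DSS or given mesalazine were not analysed here. The comparison of ceAF with DSS asks which genes of the injured colon differ after ceAF was given.

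Total counts per mouse ran from 16275884 to 19901549 in the DSS group (median 16426125) and from 14676471 to 18811795 in the ceAF group (median 16058782). Markers of colon epithelium were abundant in the libraries, with a mean of 2178 FPKM (fragments scaled by gene length and library total) for the keratin *Krt8* and 403 FPKM for the mucin *Muc2*. That the libraries came from separate animals rests on the labels, and every p-value below measures the spread between these samples. In a principal component analysis of the tested genes, the first component held 30.8% and the second 19.4% of the variance. ceAF-1 stood apart on the first, at 93.6, and DSS-1 (60.3) and DSS-5 (−45.8) stood at the ends of the second. For each of the 9 genes and each gene list, a fit to the 7 mice other than these 3, added after the data were seen, is given beside the fit to all 10. In that fit 2558 of the 16545 tested genes (15.5%) were at an unadjusted p under 0.05, against 1146 (6.93%) with all 10 mice.

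As background, Th17 cells arise when T cells meet antigen together with inflammatory cytokines, and interleukin 23 from myeloid cells keeps them active. Their interleukin 17 acts on epithelium and stroma, which release chemokines for neutrophils and antimicrobial proteins, and their interleukin 22 acts on epithelium through STAT3 to drive repair and defence. In the gut, gamma delta T cells and group 3 innate lymphoid cells make the same cytokines.

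Of the 9 genes, 4 had enough counts to be tested across all genes (*Il21*, *Ccr6*, *Il22ra1* and *Il17ra*), and 5 were too low for it. *Il21* passed that filter through 4 DSS mice with 29 to 48 counts and ceAF-2 with 14. At an adjusted p under 0.05 and a log2 fold change of 1 or more in size, 0 of the 4 were called by edgeR (quasi-likelihood test, Benjamini-Hochberg adjustment), beside 0 (0%) of all 16545 tested genes, whose smallest adjusted p was 0.656. At an unadjusted p under 0.05, 1 of the 4, *Il21*, was lower, beside 1146 of all tested genes (6.93%), of which 607 (3.67%) were lower and 539 (3.26%) higher with ceAF. DESeq2 called 26 genes (0.157%), 25 lower and 1 higher, and 0 of the 4. Genes named below that DESeq2 called are *Batf*, *S100a9*, *Cd3g*, *Lck*, *Cd3d* and *Cxcr6*. Positions of the 9 genes are given as chromosome, start and end in the table, whose build is not named. The DSS and ceAF mice overlapped in all 9 genes, as they did in nearly all tested genes. Among all tested genes the ceAF mice were all below the DSS mice in 77 (0.465%) and all above them in 128 (0.774%). The tested genes leave out 5 of the 9.

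**Figure D1:**
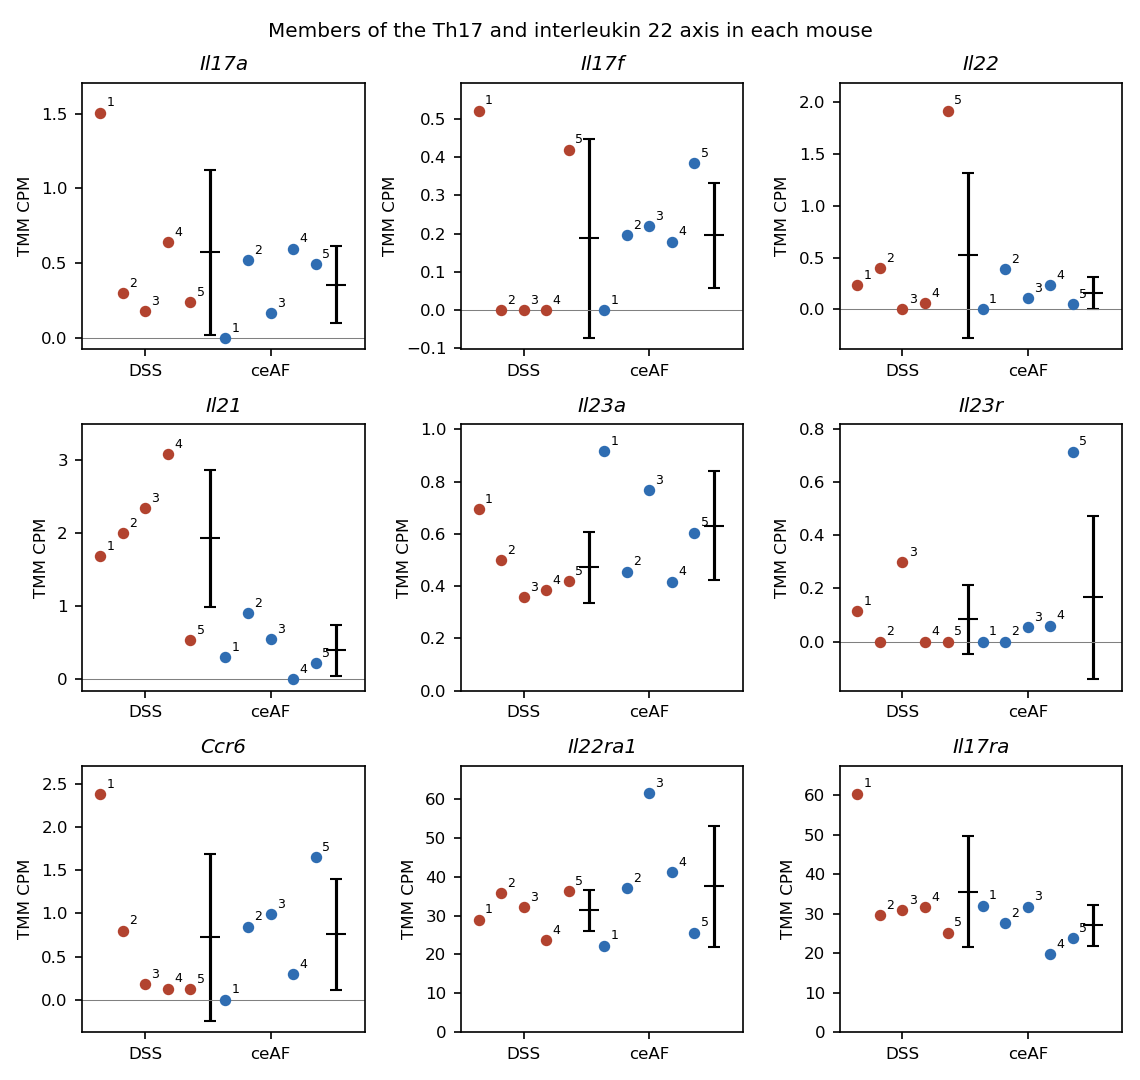
Level of each of the 9 genes in CPM (counts scaled by library total and TMM) in every mouse, numbered by replicate, with DSS mice in red, ceAF mice in blue, and the mean and SD of each group (n = 5) as black bars. *Il21* is at 1.68 to 3.07 CPM in 4 DSS mice and at 0 to 0.911 CPM in the ceAF mice, with DSS-5 at 0.540 CPM among the latter.

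*Il21* (ENSMUSG00000027718, 3:37276908-37286785, − strand) encodes interleukin 21, a cytokine of helper T cells that supports Th17 and follicular helper cells. Its normalized level was 1.68, 2.0, 2.33, 3.07 and 0.540 CPM in DSS-1 to DSS-5 and 0.305, 0.911, 0.548, 0 and 0.220 CPM in ceAF-1 to ceAF-5. In words, 4 of the 5 DSS mice stood above every ceAF mouse, and DSS-5 stood among the ceAF mice. The means were 1.93 ± 0.932 CPM with DSS and 0.397 ± 0.348 CPM with ceAF (SD, n = 5), from 165 and 32 counts in all. The log2 fold change was −2.26 (standard error 0.656), with an unadjusted p of 0.00541 and an adjusted p of 0.656 in edgeR's test, and the exact permutation p was 0.0238. Over the 10 fits that each left out a mouse, that fold change ran from −2.80 to −1.93 and the unadjusted p from 0.00204 to 0.0158. In the 7 mice it was −2.55, with an unadjusted p of 0.00451. The 0 counts in ceAF-4 allow a level of up to 0.179 CPM, the value of 3 counts, which covers counting error only.

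The 12 T cell markers, general genes of T cells such as the CD3 chains, followed the same mice. Their summed level was 167, 162, 157, 175 and 59.5 CPM in DSS-1 to DSS-5 and 58.4, 87.6, 69.5, 36.5 and 50 CPM in ceAF-1 to ceAF-5. As with *Il21*, DSS-5 lay with the ceAF mice and the 4 other DSS mice above them. All 12 were tested and lower with ceAF, 11 of them at an unadjusted p under 0.05, beside 6.93% of all tested genes. The median log2 fold change was −1.23 beside 0.01 over all tested genes. The list was chosen with earlier results of these data known, so its counts are a description and no independent support. Without DSS-1, DSS-5 and ceAF-1 the median was −1.45, with all 12 still lower and 11 under 0.05, beside 15.5% of all tested genes. *Cd3g*, a chain of the T cell receptor complex, was at 17.7 ± 5.41 CPM with DSS and 6.40 ± 1.63 CPM with ceAF (SD, n = 5), a log2 fold change of −1.47 with an unadjusted p of 0.000174, and it was called without DSS-5 and in the 7 mice. *Lck*, the kinase that starts receptor signaling, had a log2 fold change of −1.32 and *Cd3d* one of −1.52, and the most abundant marker, *Trbc2*, had a mean of 16.7 FPKM. In bulk tissue, fewer T cells and less RNA per T cell cannot be told apart.

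*Il21* was therefore also counted against those markers, a ratio added after the values were seen. Per 1000 counts of the 12 markers, *Il21* had 10.1, 12.4, 14.9, 17.6 and 9.07 counts in DSS-1 to DSS-5 and 5.23, 10.4, 7.89, 0 and 4.40 in ceAF-1 to ceAF-5. On this scale ceAF-2 lay among the DSS mice and the 4 other ceAF mice lay below all of them. The means were 12.8 ± 3.49 with DSS and 5.58 ± 3.91 with ceAF (SD, n = 5), a log2 ratio of −1.20 with an exact permutation p of 0.0238. Against the 3 CD3 chain genes alone the means were 43.8 ± 11 and 22.1 ± 17.2 (SD, n = 5), a log2 ratio of −0.99 with an exact permutation p of 0.0556. How much of the difference in *Il21* goes with T cell content was not tested further.

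**Figure D2:**
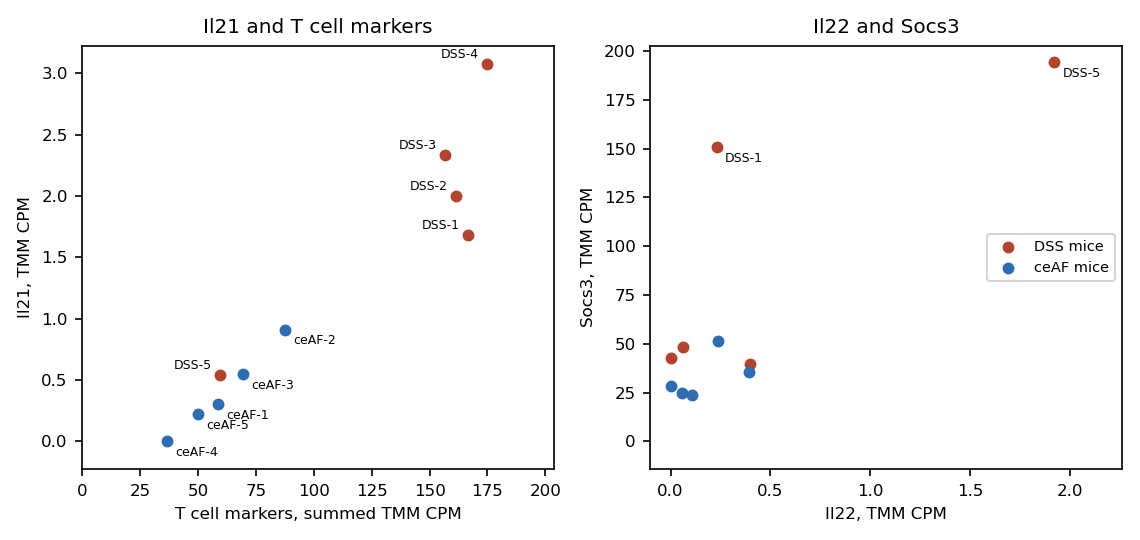
Left, *Il21* against the summed level of the 12 T cell markers, and right, *Il22* against its target *Socs3*, both in CPM for each of the 10 mice. In the left plot DSS-5 lies among the ceAF mice, and in the right plot DSS-5, at 1.92 CPM of *Il22* and 194 CPM of *Socs3*, lies apart from the others.

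The 10 Th1 and Treg genes stand for other helper T cell states. Of the 9 tested, 8 were lower and 1 was higher with ceAF, 4 of the lower ones at an unadjusted p under 0.05, with a median log2 fold change of −0.90. *Ifng*, the main Th1 cytokine, had means of 2.95 ± 1.37 CPM with DSS and 0.783 ± 0.589 CPM with ceAF (SD, n = 5), a log2 fold change of −1.92 and an unadjusted p of 0.00538. *Tbx21*, the Th1 transcription factor, had a log2 fold change of −1.50 (unadjusted p 0.00866), and *Stat4*, which relays interleukin 12, one of −0.90. The regulatory T cell genes *Ikzf2* and *Ctla4* had values of 0.32 and −0.76, each with an unadjusted p above 0.05. *Ctla4* was the most abundant of the list at a mean of 3.29 FPKM. *Ikzf2* did not follow the T cell markers, at 48.15 CPM in ceAF-1 and 20.3 CPM in DSS-4. *Foxp3* and *Il2ra*, named after their values were seen, had log2 fold changes of −0.08 and −0.65, each also with an unadjusted p above 0.05. *Ikzf2* was the only regulatory gene of the list that was higher with ceAF. The count of 4 was 2 without DSS-2, DSS-3, DSS-4, ceAF-1, ceAF-4 or ceAF-5, each left out alone, and 6 without DSS-5. In the 7 mice the counts were the same 8, 1 and 4, beside 15.5% of all tested genes under 0.05, with a median of −0.77. The summed level of the list was 57.2 ± 20.8 CPM with DSS and 49.4 ± 12.4 CPM with ceAF (SD, n = 5), of which *Ikzf2*, the 1 higher gene, made up means of 26.7 and 33.3 CPM.

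*Il17a* and *Il17f* encode interleukins 17A and 17F, which pair with themselves and each other and act on the same receptor. The genes are neighbours, on the table's chromosome 1 at 20801129-20804720 (+ strand, ENSMUSG00000025929) and 20847370-20860841 (− strand, ENSMUSG00000041872), 42649 bases apart. *Il17a* was at 1.51, 0.300, 0.180, 0.640 and 0.240 CPM in DSS-1 to DSS-5 and at 0, 0.521, 0.164, 0.597 and 0.495 CPM in ceAF-1 to ceAF-5. It was highest in DSS-1 and absent from the counts of ceAF-1, and the other 8 mice of both groups overlapped. From 49 counts with DSS and 30 with ceAF, the log2 fold change fitted without the filter was −0.64 (standard error 0.705), and the exact permutation p was 0.532. The fold change was 0.09 without DSS-1 and 0.26 without DSS-1, DSS-5 and ceAF-1, so its direction rests on DSS-1.

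*Il17f* was at 0.522, 0, 0, 0 and 0.420 CPM in DSS-1 to DSS-5 and at 0, 0.195, 0.219, 0.179 and 0.385 CPM in ceAF-1 to ceAF-5. Counts came from 2 of the 5 DSS mice, DSS-1 and DSS-5, and from 4 of the 5 ceAF mice, and none exceeded 9. With 16 counts from DSS mice and 17 from ceAF mice, the log2 fold change was 0.11 (standard error 0.984) and the exact permutation p was 1.0. The fold change turned to −0.22 without DSS-2, −0.19 without DSS-3, −0.18 without DSS-4 and −0.27 without ceAF-5. Without DSS-1, DSS-5 and ceAF-1, the 3 DSS mice had 0 counts and the 4 ceAF mice 3 to 7, and the fit gave 5.13 with an unadjusted p of 0.00239. That value is set against a group at 0 and is no bound on the fold. With all 10 mice, a difference in *Il17a* or *Il17f* was not detectable at this depth and this spread between mice. In the 10 libraries 3 counts stand for 0.150 to 0.229 CPM. The parts of depth and of spread in this were not tested.

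*Il22* (ENSMUSG00000074695, 10:118040847-118045952, + strand) encodes interleukin 22, which acts on epithelial cells. It was at 0.232, 0.400, 0, 0.0640 and 1.92 CPM in DSS-1 to DSS-5 and at 0, 0.391, 0.110, 0.239 and 0.0550 CPM in ceAF-1 to ceAF-5. DSS-5 alone held 32 of the 58 counts (55.2%), and the 9 other mice of both groups lay between 0 and 0.400 CPM. The log2 fold change fitted without the filter was −1.67 (standard error 0.996), with an unadjusted p of 0.115, and the exact permutation p was 0.437. The fold change was −0.17 without DSS-5, 0.23 without DSS-1, DSS-5 and ceAF-1, and −1.99 without DSS-3, where the unadjusted p was 0.0462.

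C57/BL6 mice carry a second copy of this gene, *Il22b* (also named *Iltifb*), which had 1 count in DSS-1, 3 in DSS-5 and 0 elsewhere. The transcripts of *Il22* and *Il22b* in GENCODE M21 share 1081 identical bases out of 1110 of *Il22* (97.4%), and 435 of its 1061 windows of 50 bases (41.0%) occur unchanged in *Il22b*. How reads from those stretches were counted is not stated in the sources used here, so the counts of *Il22* carry that uncertainty. *Il17a* and *Il17f* share 0 of 1122 such windows.

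*Il23a* (ENSMUSG00000025383, 10:128132008-128134621, − strand) encodes the p19 subunit of interleukin 23, which pairs with the product of *Il12b*. It was at 0.695, 0.50, 0.359, 0.384 and 0.420 CPM in DSS-1 to DSS-5 and at 0.916, 0.456, 0.768, 0.418 and 0.605 CPM in ceAF-1 to ceAF-5. Every mouse had between 6 and 14 counts, and the groups overlapped. The fitted log2 fold change was 0.42 (standard error 0.384) and the exact permutation p was 0.198. With each mouse left out, the fold change ran from 0.25 to 0.58, and in the 7 mice it was 0.44. *Il12b*, named after its values were seen, was too low to be tested, at 0.640 ± 0.287 CPM with DSS and 0.380 ± 0.295 CPM with ceAF (SD, n = 5).

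*Il23r* (ENSMUSG00000049093, 6:67399916-67468839, − strand) encodes the receptor chain specific to interleukin 23. It was at 0.116, 0, 0.299, 0 and 0 CPM in DSS-1 to DSS-5 and at 0, 0, 0.0548, 0.0597 and 0.715 CPM in ceAF-1 to ceAF-5. Of its 22 counts 13 (59.1%) came from ceAF-5, and 5 of the 10 mice had 0. The fitted log2 fold change was 1.02 (standard error 1.19) and the exact permutation p was 0.802. The fold change was −1.22 without ceAF-5 and 2.33 without DSS-3, so neither its size nor its direction holds without those mice, and in the 7 mice it was 1.1.

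*Ccr6* (ENSMUSG00000040899, 17:8454875-8475973, + strand) encodes a receptor that Th17 cells and B cells carry, for the chemokine CCL20. It was at 2.38, 0.80, 0.180, 0.128 and 0.120 CPM in DSS-1 to DSS-5 and at 0, 0.846, 0.987, 0.298 and 1.65 CPM in ceAF-1 to ceAF-5. DSS-1 and ceAF-5 were the highest mice of their groups, and the groups overlapped throughout. The fitted log2 fold change was 0.09 (standard error 0.907) and the exact permutation p was 0.913. Left out alone, DSS-1 gave a fold change of 1.26, DSS-3 −0.13, DSS-4 −0.17, DSS-5 −0.15 and ceAF-5 −0.41. In the 7 mice the fold change was 1.29, with an unadjusted p of 0.104.

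The B cell markers had their highest levels in the same 2 mice. Their summed level was 289, 64.4, 52.5, 59.7 and 78.3 CPM in DSS-1 to DSS-5 and 18.9, 63.5, 123, 21.9 and 183 CPM in ceAF-1 to ceAF-5. All 9 were tested and lower with ceAF, 0 of them at an unadjusted p under 0.05, with a median log2 fold change of −0.50. Without DSS-1, 0 of the 9 were lower. In the 7 mice all 9 were higher, 1 of them under 0.05 beside 15.5% of all tested genes, with a median of 0.97. The most abundant was the follicle chemokine *Cxcl13* (mean 28.7 FPKM, log2 fold change −0.12), and *Cd79a*, a chain of the B cell receptor, had a log2 fold change of −0.73. The part of B cells in the values of *Ccr6* was not tested.

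*Il22ra1* and *Il17ra* encode receptor chains for interleukins 22 and 17. *Il22ra1* (ENSMUSG00000037157, 4:135455483-135479451, + strand), which epithelial cells carry, was at 28.9, 35.7, 32.2, 23.6 and 36.2 CPM in DSS-1 to DSS-5 and at 22.3, 37.0, 61.4, 41.2 and 25.6 CPM in ceAF-1 to ceAF-5. ceAF-3 was the highest mouse and ceAF-1 the lowest, so that the ceAF mice enclosed all 5 DSS mice. ceAF against DSS gave a log2 fold change of 0.26 (standard error 0.251), an unadjusted p of 0.325 and an exact permutation p of 0.492. Without ceAF-3 the fold change was 0.02, and in the 7 mice 0.43.

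*Il17ra* (ENSMUSG00000002897, 6:120440208-120464520, + strand), which many cell types carry, was at 60.4, 29.6, 31.0, 31.8 and 25.2 CPM in DSS-1 to DSS-5 and at 32.1, 27.7, 31.8, 19.9 and 23.8 CPM in ceAF-1 to ceAF-5. DSS-1 was far above the 9 others, which overlapped. ceAF against DSS gave a log2 fold change of −0.40 (standard error 0.236), an unadjusted p of 0.120 and an exact permutation p of 0.230. The fold change was −0.11 without DSS-1 and −0.26 in the 7 mice.

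Per length, the receptor genes *Il22ra1* and *Il17ra* stood well above the 7 other genes in both groups. With DSS, *Il22ra1* had a mean level of 12.3 ± 2.24 FPKM and *Il17ra* one of 4.16 ± 1.74 FPKM (SD, n = 5). The 7 other genes followed from *Il17a* at 0.498 FPKM, *Il22* at 0.478, *Il21* at 0.366, *Ccr6* at 0.318, *Il23a* at 0.210 and *Il17f* at 0.096 down to *Il23r* at 0.034. With ceAF, *Il22ra1* was at 14.5 ± 5.93 FPKM and *Il17ra* at 3.06 ± 0.443 FPKM (SD, n = 5). After them came *Ccr6* at 0.332 FPKM, *Il17a* at 0.312, *Il23a* at 0.274, *Il22* at 0.144, *Il17f* at 0.10 and *Il21* and *Il23r* at 0.072 each. In each group the steps after those first 2 genes were smaller than the larger SD of the neighbours, so neighbours among those 7 are not resolved. Some genes further apart are: with ceAF, *Il23a* was at 0.19 to 0.36 FPKM and *Il21* at 0 to 0.17 FPKM.

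The list of other ligands and receptors of the IL-17 and IL-22 family held 16 genes. Of the 11 tested, 7 were lower and 4 higher with ceAF, 2 of the lower ones at an unadjusted p under 0.05, with a median log2 fold change of −0.19 beside 0.01 over all tested genes. Those 2 were *Il2rg*, the common gamma chain (−0.74, unadjusted p 0.0338), and *Il21r*, its partner in the interleukin 21 receptor (−0.93, unadjusted p 0.0484). *Il21r* was at 17.4, 9.59, 7.06, 11.8 and 3.84 CPM in DSS-1 to DSS-5 and at 3.05, 5.21, 6.96, 2.57 and 8.14 CPM in ceAF-1 to ceAF-5, with DSS-5 again low in its group. Both were above 0.05 without DSS-1, DSS-2, DSS-4, ceAF-1, ceAF-2 or ceAF-4, each left out alone, and in the 7 mice. A higher gene was under 0.05 without DSS-4, ceAF-3 or ceAF-4 and another lower one without DSS-5 or ceAF-2, and 0 of the 11 were with the replicate number as a block. Of the 11, 6 were lower and 5 higher in the 7 mice, with a median of −0.06. Of the lower ones 1, neither *Il2rg* nor *Il21r*, was under 0.05, beside 15.5% of all tested genes. *Il17rc*, which pairs with IL-17RA, was the most abundant at a mean of 35.4 FPKM and had a log2 fold change of 0.07, and *Il10rb*, the partner of IL-22RA1, had −0.02. *Il17rb*, a receptor chain for interleukin 25, had 0.70 with an unadjusted p of 0.0648, and *Il17b*, *Il17c*, *Il25*, *Il22b* and *Il12b* were too low to be tested.

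Of the 18 genes for Th17 differentiation, 17 were tested, 12 lower and 5 higher with ceAF, 3 of the lower ones at an unadjusted p under 0.05, with a median log2 fold change of −0.24. *Batf*, a transcription factor that Th17 cells need, was at 5.68, 2.35, 2.63, 3.91 and 1.98 CPM in DSS-1 to DSS-5 and at 0.534, 1.56, 1.10, 0.716 and 1.43 CPM in ceAF-1 to ceAF-5. Every ceAF mouse was below every DSS mouse, the only such case among the 17. Its log2 fold change was −1.62 (standard error 0.378), with an unadjusted p of 0.00131 (adjusted p 0.656 in edgeR's test with Benjamini-Hochberg adjustment), and −1.33 without DSS-1. With DESeq2 its unadjusted p was 5.03e-05 and its adjusted p was under 0.05. *Il1b*, a cytokine that promotes Th17 cells, had −3.79 with an unadjusted p of 0.0112, but −1.35 with 0.0957 without DSS-1, where it reached 597 CPM. *Il6st*, the shared receptor chain of interleukin 6, had −0.53 (unadjusted p 0.0276), but −0.40 without DSS-1, −0.39 without DSS-5 and −0.42 without ceAF-1, each with an unadjusted p above 0.05, and −0.07 in the 7 mice. *Stat3*, which relays interleukins 6, 21, 22 and 23, had −0.24, and the most abundant gene, *Hif1a*, had 0.03 at a mean of 59.2 FPKM. Without DSS-1, 1 of the 17 was under 0.05. Of the 17, 9 were lower and 8 higher in the 7 mice, 2 of the lower and 1 of the higher ones under 0.05 beside 15.5% of all tested genes, with a median of −0.01.

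The gamma delta T and group 3 innate lymphoid markers, 17 genes of other cells that make interleukins 17 and 22, had 12 tested, 10 lower and 2 higher with ceAF. Of the lower ones 3 were at an unadjusted p under 0.05, and the median log2 fold change was −0.31. Without DSS-1, 7 were lower and 5 higher with a median of −0.12, without DSS-5 all 12 were lower with −0.51, and with the replicate number as a block the median was −0.10. Their summed level was 137, 118, 101, 121 and 74.5 CPM in DSS-1 to DSS-5 and 112, 98.9, 96.8, 68.1 and 84.9 CPM in ceAF-1 to ceAF-5, with DSS-5 the lowest DSS mouse. Of the 12, 8 were lower and 4 higher in the 7 mice, with a median of −0.56. Of the lower ones 6 were under 0.05, beside 15.5% of all tested genes. *Cxcr6*, a chemokine receptor that T cells also carry, had a log2 fold change of −1.40 (unadjusted p 0.00207), *Ltb*, a lymphotoxin chain, −1.01 and *Il18r1*, a receptor for interleukin 18, −0.82. *Sox13*, a factor of gamma delta T cells that other tissues express too, was the most abundant at 12.8 FPKM and had 0.00, and *Il7r*, the interleukin 7 receptor of lymphocytes, had −0.35. *Trdv4*, *Trgv6*, *Scart2*, *Ncr1* and *Lta* were too low to be tested.

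**Figure D3:**
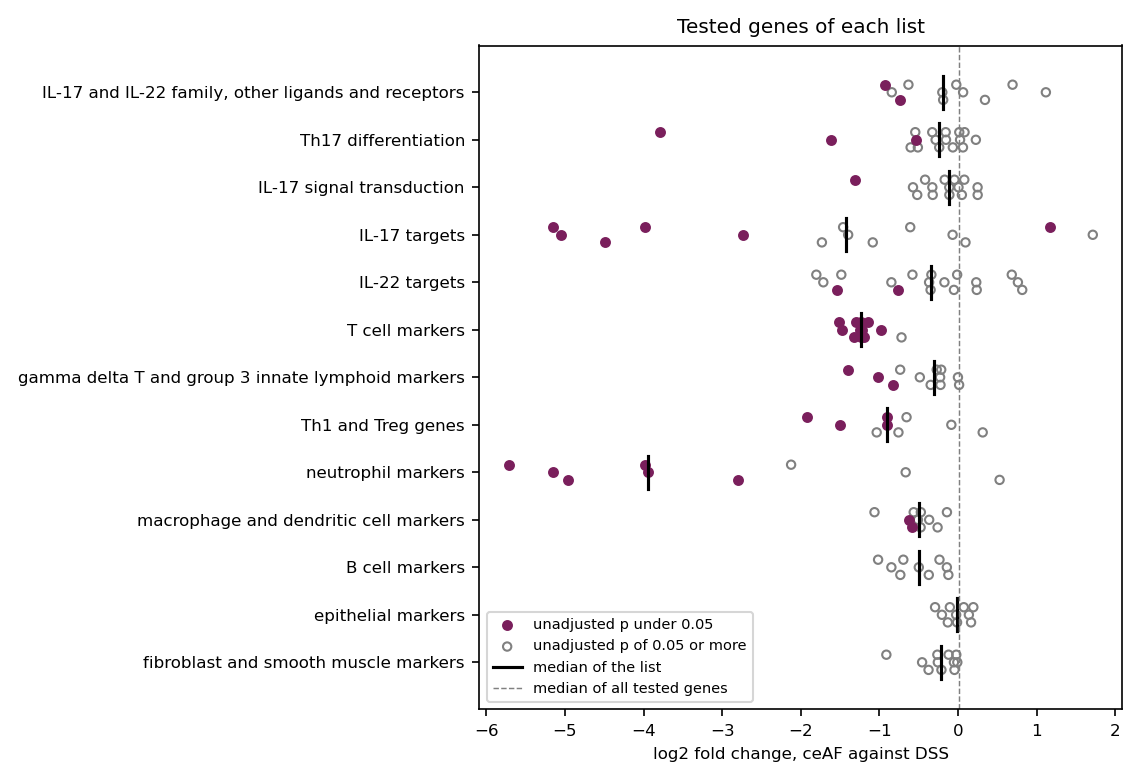
Log2 fold change of ceAF against DSS for each tested gene of the 13 lists, filled where the unadjusted p was under 0.05, with the median of each list as a black line and that of all tested genes as a dashed line. The medians run from −3.94 for neutrophil markers to −0.02 for epithelial markers.

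Below the IL-17 receptor, all 15 genes of IL-17 signal transduction were tested, 10 lower and 5 higher with ceAF, 1 of the lower ones at an unadjusted p under 0.05, with a median log2 fold change of −0.11. That gene was *Cebpb*, a transcription factor of the IL-17 response, at −1.31 (unadjusted p 0.0307). DSS-1 held 62.9 CPM of it and the other 9 mice between 7.15 and 12.6 CPM, and its log2 fold change was −0.34 without DSS-1. The count of 1 was 0 without DSS-1, ceAF-1, ceAF-2 or ceAF-5, each left out alone. It was also 0 on log2 FPKM with 0.1 or 1 added and with the replicate number as a block. Of the 15, 6 were lower and 9 higher in the 7 mice, with a median of 0.06. Of the higher ones 2 were under 0.05, beside 15.5% of all tested genes. *Traf2*, an adaptor, had −0.17, *Nfkbia*, the NF-kappa-B inhibitor and most abundant gene (60.9 FPKM), −0.42, *Nfkbiz*, a co-activator of IL-17 targets, −0.32 and *Tab2*, an adaptor of the kinase TAK1, −0.11.

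Of the 16 IL-17 targets 14 were tested, 11 lower and 3 higher with ceAF, 5 of the lower and 1 of the higher ones at an unadjusted p under 0.05, with a median log2 fold change of −1.43. In all, 6 genes were under 0.05, against 4 with DESeq2 and 1 each on log2 FPKM with 0.1 or 1 added and with the replicate number as a block. *Cxcl2*, a neutrophil chemokine, was at 501, 4.0, 33.8, 6.15 and 11.5 CPM in DSS-1 to DSS-5 and at 0.916, 9.31, 7.29, 6.44 and 0.660 CPM in ceAF-1 to ceAF-5. DSS-1 stood far above the 9 others. The log2 fold change of *Cxcl2* was −4.49 and −1.49 without DSS-1, that of the related *Cxcl3* −5.05 and −1.48, and that of *S100a9*, a subunit of calprotectin, −5.15 and −2.62. Without DSS-1, 1 of the 14, *S100a9*, was under 0.05 (unadjusted p 0.0253) and the median was −0.50. In the 7 mice 5 were lower and 9 higher, with a median of 0.27. Of each, 1 was under 0.05, beside 15.5% of all tested genes. *Nox1*, an epithelial oxidase and the higher gene under 0.05, had 1.17 (unadjusted p 0.0492) and was named after its values were seen. *Pigr*, which carries IgA across epithelium, was the most abundant at a mean of 851 FPKM and had −0.07.

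DSS-1, the mouse with the most *Il17a*, was the highest of the 10 mice in 9 of the 14 tested IL-17 targets (64.3%), beside 2639 of all tested genes (16%). It was also the highest in 8 of the 9 B cell markers, 6 of the 10 macrophage and dendritic cell markers, 5 of the 9 tested Th1 and Treg genes and 9 of the 17 tested Th17 differentiation genes. It was the highest as well in 7 of the 9 tested neutrophil markers, which share *S100a8* and *S100a9* with the targets. Of the 10 neutrophil markers, 8 of those tested were lower and 1 higher with ceAF, 6 of the lower ones at an unadjusted p under 0.05, with a median log2 fold change of −3.94. That count was 2 with DESeq2, 3 and 1 on log2 FPKM with 0.1 and 1 added (medians −1.73 and −1.15) and 0 with the replicate number as a block (median −1.77). Their summed level was 2091, 369, 488, 465 and 921 CPM in DSS-1 to DSS-5 and 71.0, 634, 614, 401 and 838 CPM in ceAF-1 to ceAF-5, so ceAF-1 was lowest and the 8 mice besides it and DSS-1 overlapped. Outside DSS-1, *Cd177* and *Ly6g* made up most of that sum, 624 and 194 of 838 CPM in ceAF-5, so it says little of the other markers. *Trem1*, a receptor of neutrophils and monocytes, had −4.96 and *Retnlg*, a neutrophil granule protein, −5.72, whereas *Cd177* had 0.53 and *Ly6g*, the most abundant at 198 FPKM, −0.67. Without DSS-1, 2 of the 9 were under 0.05 and the median was −1.07. In the 7 mice 6 were lower and 3 higher, with a median of −1.08. Of these, 2 of the lower and 1 of the higher ones were under 0.05, beside 15.5% of all tested genes. The part of neutrophils in the values of the IL-17 targets was not tested.

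All 18 IL-22 targets were tested, 13 lower and 5 higher with ceAF, 2 of the lower ones at an unadjusted p under 0.05, with a median log2 fold change of −0.34. *Socs3*, a feedback inhibitor that STAT3 induces, was at 151, 39.6, 42.7, 48.1 and 194 CPM in DSS-1 to DSS-5 and at 28.5, 35.6, 23.6, 51.2 and 24.8 CPM in ceAF-1 to ceAF-5. DSS-5 and DSS-1 were high and the 8 others overlapped. Its log2 fold change was −1.54 (unadjusted p 0.00789) and −0.36 without DSS-1, DSS-5 and ceAF-1. *Saa2*, a serum amyloid A, had −0.76 (unadjusted p 0.0415) and −0.47 in the 7 mice, its relative *Saa1* −0.58 and *Lrg1*, a secreted glycoprotein, −1.80 (unadjusted p 0.0752). *Reg3b*, an antimicrobial lectin and the most abundant of the list at a mean of 797 FPKM, had 0.82 and ran from 36.8 CPM in ceAF-5 to 4252 CPM in ceAF-1.

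DSS-5, the mouse with the most *Il22*, was the highest of the 10 mice in 10 of the 18 IL-22 targets (55.6%), beside 2463 of all tested genes (14.9%) and 6 of the 15 genes of IL-17 signal transduction. Those 10 were *Fut2*, *Socs3*, *Saa1*, *Saa2*, *Nos2*, *Lbp*, *Lrg1*, *Bcl3*, *Il18* and *Steap4*, named after their values were seen. In contrast *Reg3b* in DSS-5 was at 38.3 CPM, and *Reg3g*, also named after its values were seen, was at 6.06 CPM, its lowest value in the 10 mice. The count of 13 lower genes was 7 without DSS-5, with a median of 0.12. In the 7 mice 7 were lower and 11 higher, with a median of 0.25. Of these, 0 of the lower and 4 of the higher ones were under 0.05, beside 15.5% of all tested genes. The count of 2 under 0.05 was 1 without DSS-1, DSS-2, DSS-5, ceAF-2 or ceAF-3, each left out alone.

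The remaining lists cover cells that make interleukin 23, receive interleukin 22 or surround both. All 10 macrophage and dendritic cell markers were tested and lower with ceAF, 2 of them at an unadjusted p under 0.05, with a median log2 fold change of −0.49. They were *Adgre1* (−0.58), the F4/80 antigen of macrophages, and the complement gene *C1qa* (−0.62), the most abundant at 27.6 FPKM. The summed level was 198, 158, 162, 175 and 101 CPM in DSS-1 to DSS-5 and 49.1, 133, 149, 96.9 and 133 CPM in ceAF-1 to ceAF-5, lowest in ceAF-1. The count of 2 was 0 without DSS-1, DSS-2, DSS-3, ceAF-1, ceAF-4 or ceAF-5, 1 without DSS-4 and 4 without DSS-5. It was also 0 with the replicate number as a block, and 1 with upper quartile scaling or robust dispersion. In the 7 mice all 10 were lower, 4 of them under 0.05 beside 15.5% of all tested genes, with a median of −0.37. The 10 epithelial markers had 6 lower and 4 higher, 0 under 0.05 and a median of −0.02, and the most abundant was the carbonic anhydrase *Car1* at 2778 FPKM. Without DSS-4 or ceAF-5 only 3 of the 10 were lower, and without ceAF-4 1 was under 0.05. In the 7 mice 8 were lower and 2 higher, 2 of the lower ones under 0.05 beside 15.5% of all tested genes, with a median of −0.14. All 11 fibroblast and smooth muscle markers were lower, 0 of them under 0.05, with a median of −0.21 and *Acta2* the most abundant at 160 FPKM. Without DSS-1 or ceAF-1 5 of the 11 were lower, and without DSS-4, DSS-5 or ceAF-4 1 was under 0.05. Of the 11, 2 were lower and 9 higher in the 7 mice, 0 of them under 0.05, with a median of 0.28. No gene of any of the 13 lists was at 0 in all 10 mice.

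The genes whose pattern over the 10 mice was most like that of a cytokine were ranked by Pearson's r on log2 CPM, as a description of mice that share depth and tissue content. For *Il17a* they were *Itpripl1* (r 0.983), *Foxf1* (0.963), *Rilpl2* (0.958), *Tm4sf1* (0.958) and *Basp1* (0.953), all highest in DSS-1, with Spearman's rho between 0.915 and 0.964. Without ceAF-1 and DSS-1, the mice farthest from the median of *Il17a*, r was 0.958, 0.843, 0.790, 0.866 and 0.787 in that order. For *Il22* they were *Fbxo30* (r 0.947), *Ppp6r1* (0.931), *Atg16l1* (0.923), *Slc38a10* (0.920) and *Map3k2* (0.915), all highest in DSS-5, with rho between 0.821 and 0.900. Without DSS-5 and DSS-3, r was 0.862, 0.810, 0.777, 0.894 and 0.842. For *Il21*, looked at after its values were seen, r was 0.989 with *Ifng* and 0.977 with *Tbx21*, with rho of 0.952 and 0.964 and r of 0.974 and 0.934 without ceAF-4 and DSS-4.

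Promoter windows from RefSeq, 250 bases before to 50 after a gene's start on GRCm38.p6, were found for 7 of the 9 genes, with entries for *Il17ra* and *Il23a* missing. They were searched on both strands for AGGTCA, a site of nuclear receptors, TTCNNNGAA, a STAT motif, and TGANTCA, a motif of AP-1 and BATF. Of all 32851 promoters, 16.3% hold the first, 8.30% the second and 7.81% the third. The windows of the 4 cytokines released by T cells and lymphoid cells are shown, since *Il17a* and *Il17f* share a locus and a receptor and *Il21* is the gene under an unadjusted p of 0.05, and capitals mark the motifs. *Il17a* (chr1:20730655-20730954, + strand) holds 1 TGANTCA and 1 AGGTCA, the latter read on the other strand as TGACCT. *Il17f* (chr1:20784221-20784520, − strand) holds 1 AGGTCA, and *Il21* (chr3:37232587-37232886, − strand) and *Il22* (chr10:118204714-118205013, + strand) hold none of the 3 in these windows.
Il17a: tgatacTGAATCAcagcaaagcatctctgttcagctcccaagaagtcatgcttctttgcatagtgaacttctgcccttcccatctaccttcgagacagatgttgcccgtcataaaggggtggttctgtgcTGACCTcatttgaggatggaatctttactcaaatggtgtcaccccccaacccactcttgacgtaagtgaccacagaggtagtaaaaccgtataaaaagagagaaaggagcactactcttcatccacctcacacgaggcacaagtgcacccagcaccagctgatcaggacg
Il17f: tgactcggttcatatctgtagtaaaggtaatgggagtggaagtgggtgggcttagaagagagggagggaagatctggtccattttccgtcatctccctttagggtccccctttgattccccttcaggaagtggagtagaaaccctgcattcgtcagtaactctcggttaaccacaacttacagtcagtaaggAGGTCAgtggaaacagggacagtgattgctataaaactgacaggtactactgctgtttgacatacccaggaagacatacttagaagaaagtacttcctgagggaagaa
Il21: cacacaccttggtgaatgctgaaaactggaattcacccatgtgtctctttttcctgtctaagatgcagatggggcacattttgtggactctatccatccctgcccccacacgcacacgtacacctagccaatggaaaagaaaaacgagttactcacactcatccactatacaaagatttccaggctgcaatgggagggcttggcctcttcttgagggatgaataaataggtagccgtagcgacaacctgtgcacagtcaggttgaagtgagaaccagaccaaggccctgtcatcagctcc
Il22: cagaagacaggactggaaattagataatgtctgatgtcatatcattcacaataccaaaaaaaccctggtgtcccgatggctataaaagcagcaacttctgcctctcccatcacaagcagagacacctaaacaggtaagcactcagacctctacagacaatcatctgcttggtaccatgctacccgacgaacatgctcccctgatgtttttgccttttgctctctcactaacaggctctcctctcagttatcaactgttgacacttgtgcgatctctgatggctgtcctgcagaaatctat

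Among the other windows, 1 of the 2 *Ccr6* windows holds 1 AGGTCA and 2 TTCNNNGAA and the other none. *Il22ra1* holds 1 TGANTCA, *Il23r* 2 AGGTCA, and *Iltifb* 1 AGGTCA. Aligned end to end, the windows of *Il22* and *Iltifb* share 201 identical bases of 300 (67.0%), with 69 mismatches and 60 gaps. Their transcripts share a larger part, with 29 mismatches and 1 gap. The share of the windows does not show which stretches are alike. A match here is a run of letters, not a measured site.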

How the data were processed

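The authors deposited, for each mouse, the raw count of reads on each gene, from poly(A) selected RNA trimmed with cutadapt 1.9.1 and aligned with HISAT2 2.2.1. The FPKM values that the authors deposited beside them equal the count scaled by exonic length and total count. The counting program, build and annotation are not stated in the sources used here, and gene positions are printed as deposited, since 2.76% of 52073 shared genes sit at their GRCm38 position.

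Counts were filtered with filterByExpr (minimum count 10), scaled by TMM and compared with edgeR 4.0.16 in R 4.3.3 (quasi-likelihood test, two-sided, Benjamini-Hochberg adjustment over 16545 genes). The 5 genes under the filter were fitted without it. Two-sided exact permutation tests ran through every way to assign 5 of the 10 mice to a group, and the smallest p they can give is 0.00794. A prior count of 1 was used on the log2 scale. Alternatives used upper quartile scaling, DESeq2 1.42.0, other filters, robust dispersion, limma 3.58.1 on log2 FPKM with 0.1 or 1 added, the replicate number as a block, and leaving out each mouse. The fit to 7 mice and the ratio of *Il21* to T cell markers were added after the data were seen. Python 3.11.15, pandas 2.3.3, numpy 2.4.6, scipy 1.17.1 and matplotlib 3.10.9 were used.

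The 9 genes and the 13 lists were chosen with earlier results of these data known. Genes named by rule were the 9, from each list the 3 with the smallest p and the 2 with the highest mean level, the 5 most like *Il17a* and *Il22*, and the genes of the *Il22* duplication and the *Il17a* locus. Of these, 10 from the macrophage and dendritic cell, B cell, epithelial and fibroblast lists are left out of the text. The values of 1 listed gene are not reported here.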

Additional observations from a re-analysis of the deposited data

Results flagged for a closer look

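Among 46 groups of 5 mice examined, 7 held a mouse far from the others, by the gap to its nearest neighbour as a share of the whole range. The cutoff of 0.71 is Dixon's, passed by about 1 in 20 sets of 5 normally distributed values. Levels near 0 and skewed sums are not so distributed, and the 46 groups share mice. The count of 7 is therefore no measure of an excess. The total count of DSS-2, 19901549, had a gap of 0.908 of the range, the other DSS mice lying between 16275884 and 16611021. *Il22* in DSS-5 was at 1.92 CPM against 0 to 0.400 CPM in the other DSS mice (0.792 of the range). *Il23r* in ceAF-5 was at 0.715 CPM against 0 to 0.0597 CPM in the other ceAF mice (0.917). *Il17ra* in DSS-1 was at 60.4 CPM against 25.2 to 31.8 CPM (0.814).

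DSS-5 was low in 2 summed levels. The other ligands and receptors of the IL-17 and IL-22 family summed to 200 CPM in it against 241 to 251 CPM in the other DSS mice (0.805), and the T cell markers to 59.5 CPM against 157 to 175 CPM (0.842). The B cell markers summed to 289 CPM in DSS-1 against 52.5 to 78.3 CPM in the other DSS mice (0.891). What sets these mice apart was not tested.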

How the results depend on the processing

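*Il21* was lower with ceAF, at an unadjusted p under 0.05, in all 18 alternatives that tested it, with a highest unadjusted p of 0.0158 and adjusted p-values of 0.134 (DESeq2) to 1.00. Its log2 fold change was −1.41 and −0.34 on log2 FPKM with 0.1 and 1 added, against −2.26. With a minimum count of 50 it was not tested, and 0 of the 2 genes of the axis tested then were under 0.05. *Il17ra*, *Il22ra1* and *Il23a* kept their direction in all alternatives.

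The number of genes called was 0 in edgeR's quasi-likelihood test (1146 at an unadjusted p under 0.05), 26 with DESeq2, 1 in the 7 mice without DSS-1, DSS-5 and ceAF-1, an alternative chosen after seeing the data, and 0 to 3 when each mouse was left out, 3 without DSS-5. The 1146 genes became 1733 without the filter (32504 genes tested), 2558 in the 7 mice, and 700 (without DSS-1) to 1845 (without ceAF-1) when each mouse was left out. On log2 FPKM with 0.1 added they were 990, with 699 lower and 291 higher, and with 1 added 1009, with 701 and 308, beside 607 and 539. With the replicate number as a replicate block they were 694. Correlations between mice of the same number ran from −0.249 to 0.286, and only for number 5 did that of the pair exceed the highest with another ceAF mouse (0.154). *Il21* had a log2 fold change of −2.31 in that fit.

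In the 7 mice the log2 fold change was 0.26 for *Il17a*, 0.23 for *Il22*, 1.29 for *Ccr6* and 5.13 for *Il17f* (unadjusted p 0.00239), whose 3 remaining DSS mice are at 0. When each mouse was left out, it ran from −0.89 to 0.092 for *Il17a*, −0.27 to 0.92 for *Il17f*, −1.22 to 2.33 for *Il23r* and −0.41 to 1.26 for *Ccr6*. The cause was not tested. Depth limits genes with few counts, such as *Il17f* and *Il23r* with at most 9 and 13 in a mouse, and 3 counts stand for 0.150 to 0.229 CPM. With 5 mice a group, a p above 0.05 does not show that levels were equal.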
